A study of Mus musculus with 15 samples.

Results

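Polyps and inflamed mucosa were compared in mice that had received the carcinogen and the colitis-inducing agent but no drug. The samples were those labelled untreated polypoid and untreated inflamed, 8 of the series' 15 arrays from 4 of its 8 animals, with 2 animals a tissue. Each animal gave 1 tissue sample, which was hybridised on 2 arrays with the dyes exchanged, so a polyp and an inflamed sample never came from the same mouse. All 4 mice were female Swiss Webster mice, 7 weeks old at the start, that were injected with azoxymethane (AOM), a colon carcinogen, at 7.4 mg/kg. From 9 weeks of age they drank 4% dextran sulfate sodium (DSS), which injures the colon lining, in 3 cycles of 7 days. The labels give 21 days of water per cycle and a kill at 18 weeks. These ages leave no room for the 21 days of water after the last cycle. Untreated mice were given vehicle, and treated mice, used here for the estimate of the spread and for a side-by-side comparison, received 5-aminosalicylic acid (5-ASA, an anti-inflammatory drug) at 75 mg/kg. The inflamed mucosa had met the same AOM and DSS as the polyps and is therefore not healthy colon. Tissue was cut by laser capture from 5 µm frozen sections, and the labels do not say which cells the captured areas held or how the areas were chosen. RNA went through 2 rounds of amplification and was hybridised beside a universal mouse reference RNA (100 ng). A level below is log2 of sample over reference for a gene's probe, averaged over the dye-swapped arrays of an animal, and a difference is polypoid minus inflamed on the same log2 scale. Treated inflamed sample 2 had 1 array only, without a dye swap.

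The colon epithelium is renewed from stem cells at the crypt base, where Wnt ligands stabilise beta-catenin and drive transcription through the TCF/LEF factors. Cells lose this signal as they move up the crypt and become absorptive colonocytes, goblet cells and enteroendocrine cells. Wnt-active cells also express secreted and intracellular inhibitors of the pathway, among them Wif1, Notum, Nkd1 and Axin2. Activating changes in this pathway are known from the tumours of the AOM and DSS model, which grow in mucosa that has gone through repeated ulceration and repair and that holds infiltrating neutrophils.

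Both tissues carried an epithelial signal of similar size. The mean level of 17 general epithelial genes was 3.10 and 2.86 in inflamed samples 1 and 2 and 3.13 and 3.19 in polyps 1 and 2. Median sample intensities of the 8 arrays lay between 148.6 and 257.2, and 62.5% to 89.4% of spots were well above background in the sample channel. The arrays of inflamed sample 1 were scanned in session 1, those of polyp 1 in session 2, and those of inflamed sample 2 and polyp 2 together in session 3, so only the number 2 samples can be compared within a session. Between the dye-swapped arrays of an animal the median absolute difference over genes was 0.0615 to 0.0802. Each probe's mean dye difference over the animals had first been taken off, so the raw difference between the arrays is not given. For the values per animal the median absolute difference was 0.276 between the inflamed samples and 0.230 between the polyps, against 0.218 between the tissue means. Across 21303 genes, which are not independent replicates and share the reference RNA, polyp 1 correlated with inflamed sample 1 at r = 0.880 and with polyp 2 at 0.873, and polyp 2 with the inflamed samples at 0.776 and 0.791.

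Of the genes that passed the test below, 5 belonged to the Wnt or the circadian clock list, and the promoter table of RefSeq (GRCm38.p6) held windows for 4 of them. These windows, from 250 bases before to 50 bases after an annotated start, are shown because these genes give the direction of the comparison: Mmp7, Wif1 and Dkk2 rose in polyps, and Dbp was the gene that fell. Searched on both strands were the TCF/LEF consensus CTTTGAT, to which the transcription factors of the Wnt pathway bind, and the E-box CACGTG, to which the clock factors bind. Matches are in capitals, and the motifs do not overlap. All windows are on the plus strand, Mmp7 at chr9:7691840-7692139 and chr9:7692091-7692390, Wif1 at chr10:121033754-121034053, Dkk2 at chr3:132085042-132085341 and Dbp at chr7:45704997-45705296.
Mmp7 start 1: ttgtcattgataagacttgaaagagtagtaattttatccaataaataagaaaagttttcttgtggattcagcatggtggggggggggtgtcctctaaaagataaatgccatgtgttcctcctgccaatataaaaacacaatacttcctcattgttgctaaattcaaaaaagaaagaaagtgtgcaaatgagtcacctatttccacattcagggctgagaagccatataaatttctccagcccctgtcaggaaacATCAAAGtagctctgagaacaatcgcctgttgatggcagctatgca
Mmp7 start 2: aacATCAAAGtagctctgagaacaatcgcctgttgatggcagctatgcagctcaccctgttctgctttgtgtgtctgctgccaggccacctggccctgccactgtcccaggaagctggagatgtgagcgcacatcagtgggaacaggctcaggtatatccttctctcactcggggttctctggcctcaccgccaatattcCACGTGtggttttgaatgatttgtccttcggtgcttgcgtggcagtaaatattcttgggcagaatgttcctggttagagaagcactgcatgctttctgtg
Wif1: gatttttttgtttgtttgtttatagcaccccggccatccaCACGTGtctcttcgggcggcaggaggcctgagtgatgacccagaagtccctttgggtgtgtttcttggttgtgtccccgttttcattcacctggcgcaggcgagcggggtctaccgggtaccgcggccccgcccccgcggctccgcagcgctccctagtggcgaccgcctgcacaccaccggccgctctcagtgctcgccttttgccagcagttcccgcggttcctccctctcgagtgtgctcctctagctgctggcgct
Dkk2: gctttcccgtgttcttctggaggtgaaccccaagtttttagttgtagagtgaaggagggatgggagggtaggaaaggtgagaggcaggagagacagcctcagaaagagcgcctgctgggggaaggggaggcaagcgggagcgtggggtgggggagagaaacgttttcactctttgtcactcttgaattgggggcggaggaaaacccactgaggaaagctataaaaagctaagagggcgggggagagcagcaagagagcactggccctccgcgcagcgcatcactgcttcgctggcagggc
Dbp: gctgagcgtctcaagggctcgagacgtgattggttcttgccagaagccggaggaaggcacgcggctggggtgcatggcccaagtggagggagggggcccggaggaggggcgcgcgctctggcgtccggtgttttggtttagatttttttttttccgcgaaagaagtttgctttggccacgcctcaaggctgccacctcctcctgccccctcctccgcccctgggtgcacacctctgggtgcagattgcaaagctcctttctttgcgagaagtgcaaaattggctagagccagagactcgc
The windows of the annotated Mmp7 starts share 49 bases, which hold the same TCF/LEF match on the minus strand, at position 5 after the first start. The window of the second start also held an E-box, 50 bases before that start, and the Wif1 window held an E-box 210 bases before its start. No match was found in the Dkk2 and Dbp windows, which says only that these letters are not in these 300 bases. Of all 32851 windows, 3.73% held CTTTGAT and 7.15% held CACGTG. For 24 of the 35 genes that passed, 29 windows were found. Of these 24 genes 1 held CTTTGAT and 4 held CACGTG in a window. These are counts of genes, some with more than 1 window, while the shares before them are of windows.

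The comparison asks how the polyps of this model differ from inflamed mucosa when no drug is given. In polyps 34 genes rose and 1 fell. The chemokine Cxcl5, the Wnt inhibitor Wif1, the alarmin Il33, the matrix protease Mmp7 and the Wnt modulator Dkk2 led, with 19.4 to 50.5-fold higher levels. Of 21303 genes tested, 34 rose (0.16%) and 1 fell (0.00469%) in polyps at an adjusted p under 0.05 (limma, group means over all 4 groups of 2 animals, Benjamini-Hochberg). The 34 log2 differences ran from 1.19 to 5.66 with a median of 2.73, against a median of -0.03 over all genes, and the adjusted p-values of the 35 ran from 0.0355 to 0.0441. At an unadjusted p under 0.05 there were 1752 higher and 942 lower genes. Without regard to the test, 4141 genes (19.4%) were higher in both polyps than in both inflamed samples and 4768 (22.4%) were lower, and by more than 2-fold between the means these were 730 and 386. No gene passed when the 4 untreated animals were fitted alone (1976 at unadjusted p under 0.05, limma), with scan session as a fixed block, or without inflamed sample 1, inflamed sample 2 or polyp 2. Without polyp 1 there were 17 higher and 17 lower calls. Leaving out either treated inflamed animal gave 12 calls, leaving out either treated polyp gave 1, and a replicate block gave 17. In each of these fits the 35 genes kept their direction, and within session 3 they did too. For all 35 the untreated polyps and inflamed samples did not overlap. Leaving out an animal, or setting polyp 2 against inflamed sample 2 alone, therefore could not turn the direction.

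**Figure D1:**
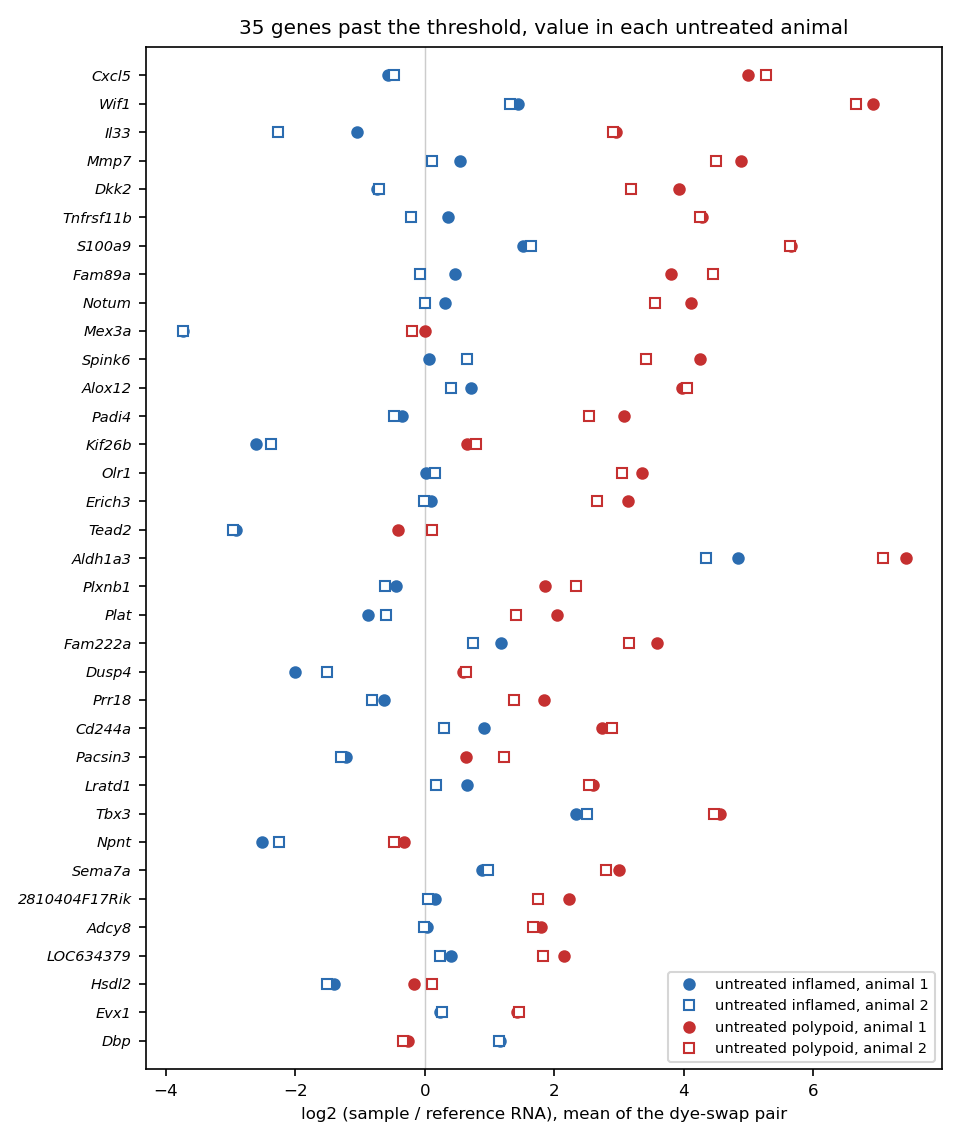
Levels (log2 of sample over reference RNA, horizontal axis) of the 35 genes past the threshold in the 4 untreated animals, blue for inflamed and red for polypoid tissue, filled for animal 1 and open for animal 2 of a group. In each of these genes the animals of a tissue lie closer together than the tissues do, with Il33 the widest within inflamed tissue (-1.04 and -2.27).

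The list of Wnt and beta-catenin target genes held 4 of the genes that rose among its 29 members, more than any other list. Of all 21303 genes 34 rose (0.16%), the share to set beside the count of each list. The lists differ in size and share members: Mmp7 is also in the metalloproteinase and Paneth-type lists. Wif1, a secreted protein that binds Wnt ligands, stood at 1.45 and 1.31 in the inflamed samples and at 6.92 and 6.67 in the polyps. It rose by 5.41 ± 0.51 (SE of the fit; 42.6-fold, limma adjusted p = 0.0394), and the gap between the tissues was far wider than that between animals. Dkk2, a secreted ligand of the Wnt co-receptors, was at -0.74 and -0.71 in inflamed tissue and at 3.93 and 3.19 in polyps, and rose by 4.28 ± 0.36 (19.4-fold). Notum, an enzyme that removes the lipid Wnt ligands need, was at 0.32 and 0.00 against 4.11 and 3.56, and rose by 3.68 ± 0.37 (12.8-fold). Mmp7, matrilysin, a protease gene that beta-catenin activates, was at 0.55 and 0.12 against 4.89 and 4.50 and rose by 4.36 ± 0.33 (20.6-fold). The groups did not overlap for any of the 4. Of the 4 inflamed arrays, 2 measured Notum well above background and 3 did so for Dkk2, while Wif1 and Mmp7 passed on all.

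All 29 genes of that list were measured. Beside the 4 that rose, 23 in all were higher in both polyps than in both inflamed samples (79.3%, against 19.4% of all genes) and 3 were lower (10.3%, against 22.4%). The list's median difference was 2.05, with 1.65 between the number 1 samples and 2.28 between the number 2 samples, and it was 1.42 over the 24 genes well above background on all 8 arrays. Nkd1, an intracellular inhibitor, stood at 1.42 and 0.33 against 6.09 and 5.61 (4.97 ± 0.68, limma adjusted p = 0.0739), and Sp5, a transcription factor, at 0.08 and -0.63 against 5.18 and 4.36 (5.05 ± 0.60, adjusted p = 0.0580). Their distance between tissues exceeded that of Notum, but their SE was larger and neither passed. The feedback gene Axin2 (0.37 and 1.28 against 4.14 and 3.56) and the stem cell receptor Lgr5 (-0.07 and -1.11 against 4.05 and 2.95) likewise did not pass, at 3.02 ± 0.38 and 4.09 ± 0.66. The transcription factors Ascl2 (-0.46 ± 0.15) and Cdx1 (-0.76 ± 0.22) had values below 0 and no call, though Wnt signalling is known to raise both.

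**Figure D2:**
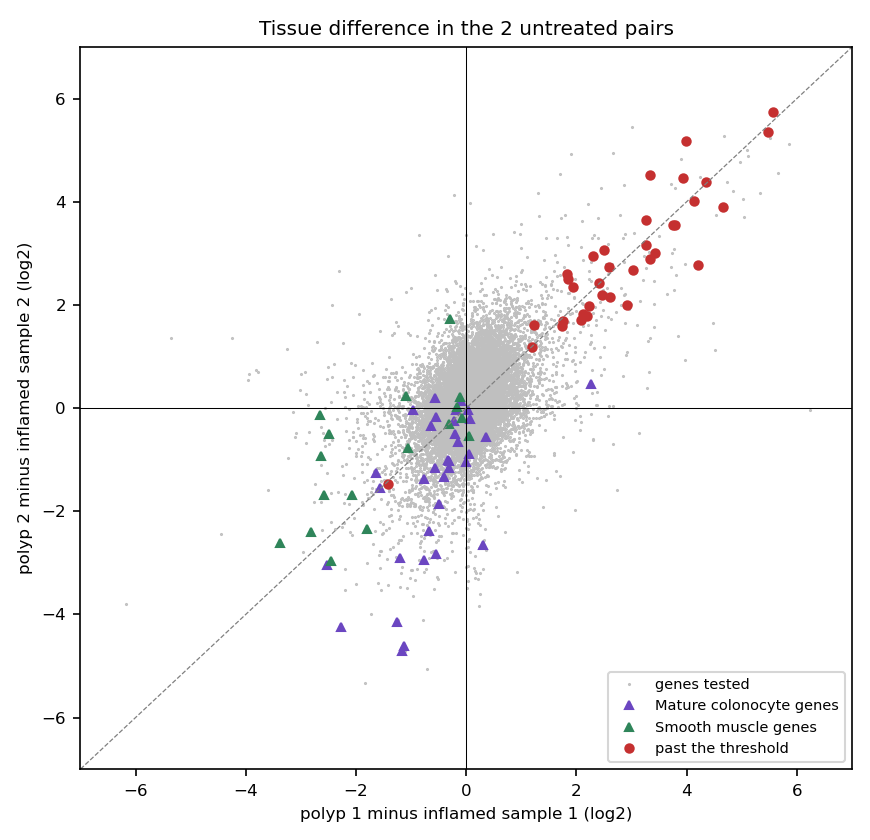
Difference of polyp 1 and inflamed sample 1 (horizontal) against that of polyp 2 and inflamed sample 2 (vertical), log2, for the genes tested (grey), the 35 past the threshold (red), mature colonocyte genes (purple) and smooth muscle genes (green). The samples are paired by number only, and the dashed line marks equal differences: red points lie along it, most purple points lie below it and most of the low green points above it.

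Genes of neutrophils and of their recruitment were the next group. Cxcl5, which attracts neutrophils, was at -0.57 and -0.47 in inflamed tissue and 5.00 and 5.28 in polyps, and rose by 5.66 ± 0.59 (50.5-fold, limma adjusted p = 0.0396). S100a9, a subunit of calprotectin, was at 1.51 and 1.64 against 5.65 and 5.65 and rose by 4.07 ± 0.27 (16.8-fold). Padi4, the enzyme that citrullinates histones in neutrophils, was at -0.35 and -0.47 against 3.08 and 2.54 and rose by 3.22 ± 0.29 (9.33-fold). The other calprotectin gene, S100a8, stood at 0.43 and 1.60 against 5.46 and 5.31 and did not pass (4.37 ± 0.55, adjusted p = 0.0665). Of 24 neutrophil genes 18 were measured, and 2 rose. In 15 both polyps were higher (83.3%, against 19.4% of all genes) and in 1 lower, and the median difference was 1.22, or 1.52 over the 12 genes well above background on all arrays. The granule protein genes Mpo (0.04 and 0.03 against 0.30 and 0.35) and Prtn3 (0.24 and 0.24 against 0.07 and 0.10) lay near the reference in both tissues. Elane, Ngp, Camp, Ly6g, Stfa1 and Stfa2 were not measured. In bulk tissue more cells of a type and more RNA per cell cannot be told apart.

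Il33, an alarmin of epithelial and stromal cells, was at -1.04 and -2.27 in inflamed tissue and at 2.95 and 2.92 in polyps, and rose by 4.59 ± 0.47 (24.0-fold). Of 41 inflammatory cytokine and chemokine genes 39 were measured, and Il33 and Cxcl5 rose. Both polyps were higher in 14 (35.9%, against 19.4% of all genes) and lower in 7 (17.9%, against 22.4%). The median was 0.36, or 0.35 and 0.13 between the number 1 and number 2 samples. The monocyte attractant Ccl7 stood at -1.1 and -1.35 against 0.11 and 0.32 (1.44 ± 0.16, limma adjusted p = 0.0505), and Il1b, a cytokine of myeloid cells, at 3.04 and 2.89 against 6.44 and 5.35 (2.93 ± 0.73, adjusted p = 0.211). Tnf was at 0.12 and 0.32 against 0.39 and 0.59, and Il6 at -0.50 and -0.79 against 0.56 and -0.94, so for Il6 the tissues overlapped. Tnfrsf11b, osteoprotegerin, the decoy receptor of the cytokine RANKL, rose by 4.19 ± 0.37 (18.3-fold), from 0.35 and -0.21 to 4.28 and 4.25. Olr1, the scavenger receptor for oxidised LDL, was at 0.02 and 0.15 against 3.36 and 3.05 and rose by 3.12 ± 0.22, with 1 of 4 inflamed arrays well above background. The lymphocyte receptor gene Cd244a rose by 2.21 ± 0.23.

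Among enzymes of lipid mediators and of the matrix, Alox12, the 12-lipoxygenase, had the smallest p of the comparison. It stood at 0.71 and 0.40 in inflamed tissue and at 3.97 and 4.05 in polyps, and rose by 3.46 ± 0.20 (11-fold, limma adjusted p = 0.0355). Plat, tissue plasminogen activator, was at -0.87 and -0.60 against 2.04 and 1.41 and rose by 2.46 ± 0.24. Of 24 matrix metalloproteinases, plasminogen activators and their inhibitors 23 were measured, and Mmp7 and Plat rose. In both polyps 12 were higher (52.2%, against 19.4% of all genes) and 2 lower (8.70%, against 22.4%), and the median was 0.87. Mmp10, stromelysin 2, stood at 1.99 and 0.98 against 5.76 and 4.07 (3.43 ± 0.85) and the sheddase Adam8 at -0.01 and -1.07 against 1.71 and 2.61 (2.70 ± 0.53), neither past the threshold. Spink6, a serine protease inhibitor, was at 0.06 and 0.65 against 4.26 and 3.42 and rose by 3.48 ± 0.35. Aldh1a3, which makes retinoic acid, was at 4.84 and 4.35 against 7.43 and 7.09 and rose by 2.66 ± 0.26.

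Transcription factors and signalling genes made up much of the rest. Tead2, a DNA-binding partner of the Hippo pathway effector YAP, was at -2.92 and -2.96 against -0.41 and 0.11 and rose by 2.79 ± 0.23. The T-box factor Tbx3 (2.33 and 2.50 against 4.57 and 4.47) rose by 2.10 ± 0.17, and the homeobox factor Evx1 (0.23 and 0.27 against 1.42 and 1.46) by 1.19 ± 0.12, the smallest of the 34 rises. Mex3a, an RNA-binding protein of crypt progenitors, stood at -3.74 and -3.74 against 0.01 and -0.19 and rose by 3.65 ± 0.32 (12.5-fold). The MAP kinase phosphatase Dusp4 rose by 2.38 ± 0.20, and the semaphorin receptor Plxnb1 and the semaphorin Sema7a rose by 2.63 ± 0.23 and 1.98 ± 0.20. The integrin ligand Npnt, nephronectin, rose by 1.99 ± 0.15 and the peroxisomal gene Hsdl2 by 1.42 ± 0.15. Adcy8, an adenylyl cyclase, was at least 3.26-fold higher and 2810404F17Rik at least 3.62-fold, since neither was well above background on an inflamed array. Such a bound sets the mean of the polyps against the lowest signal that counts as well above background. The motor protein Kif26b rose by 3.22 ± 0.32, and the adaptor Pacsin3 by 2.18 ± 0.21, but only 1 of 2 probes showed this direction for each. The others that rose were Fam89a (3.93 ± 0.31), Erich3 (2.85 ± 0.21), Fam222a (2.42 ± 0.23), Prr18 (2.32 ± 0.22), Lratd1 (2.15 ± 0.20) and LOC634379 (1.66 ± 0.17). Of the 35 genes, 26 were well above background on all 8 arrays and none was saturated on any of them.

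Dbp, a PAR-domain transcription factor of the circadian output, was the gene that fell. It stood at 1.16 and 1.14 in the inflamed samples and at -0.26 and -0.33 in the polyps, a fall by 1.44 ± 0.14 on the log2 scale (2.72-fold lower, limma adjusted p = 0.0394). Of 24 clock genes 21 were measured. Both polyps were lower in 5 (23.8%, against 22.4% of all genes) and higher in 3 (14.3%, against 19.4%), shares near the background, and the median was -0.07. The clock repressor Per2 was at 0.35 and 0.70 against 0.17 and -0.09 (-0.48 ± 0.24, adjusted p = 0.475) and the nuclear receptor Nr1d1 at 0.20 and 0.33 against 0.02 and -0.03 (-0.27 ± 0.12). The smallest p-values among the other lower genes belonged to 1600014C10Rik (-1.88 ± 0.21, adjusted p = 0.0511), the focal adhesion gene Lims2 (-2.23 ± 0.26, adjusted p = 0.0567), Pgm5, a protein of muscle adhesion sites (-2.87 ± 0.35, adjusted p = 0.0581), the retinol dehydrogenase Rdh5 (-1.26 ± 0.16), Psd (-1.48 ± 0.19), the chemerin receptor Cmklr1 (-1.61 ± 0.22) and the prostaglandin transporter Slco2a1 (-1.43 ± 0.20, adjusted p = 0.0788). Olfr570, Aldh1a7, Cyp2d26, Map2k6, Plekha6, Polr2a and Lockd, with differences from -1.81 to -1.07, completed the 15 lower genes of smallest p. Only 1 of 2 Plekha6 probes was lower in polyps.

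**Figure D3:**
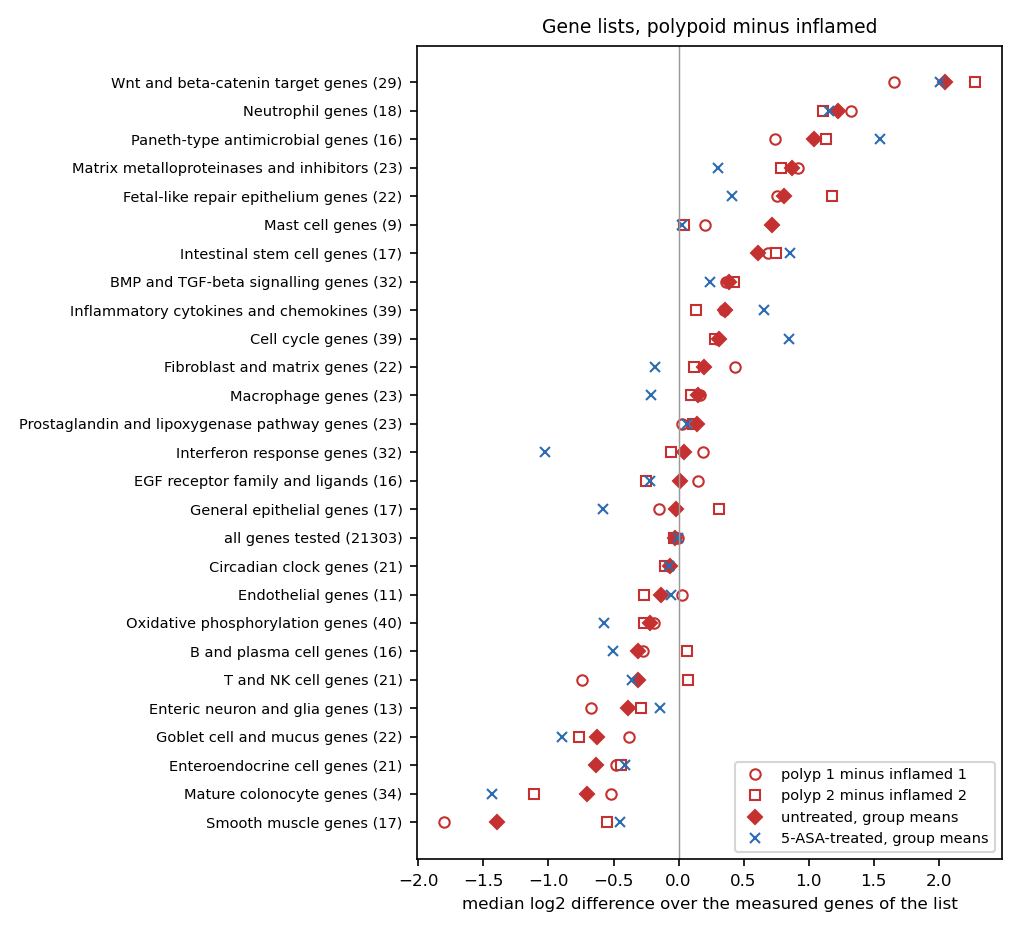
Median log2 difference of polypoid minus inflamed tissue for each gene list (number of measured genes in parentheses), from group means of untreated mice (filled diamonds), from the number 1 and number 2 samples (open circles and squares) and from 5-ASA-treated mice (crosses). The Wnt list lies highest at 2.05 and the smooth muscle list lowest at -1.40, with -1.81 and -0.55 for its number 1 and number 2 samples.

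Genes of differentiated epithelium lay lower in polyps without any of them passing. Of 34 mature colonocyte genes, all measured, 20 were lower in both polyps than in both inflamed samples (58.8%, against 22.4% of all genes) and 1 higher, and none passed (limma, 0 calls; the smallest adjusted p was 0.164, for Scnn1a). Their median difference was -0.71, or -0.74 over the 31 genes well above background on all arrays. Scnn1a, a subunit of the epithelial sodium channel, stood at 4.00 and 3.64 against 2.44 and 2.09 (-1.56 ± 0.33). Slc26a3, the chloride and bicarbonate exchanger of surface cells, was at 5.50 and 5.03 against 4.25 and 0.88 (-2.70 ± 1.04), Hao2, a peroxisomal oxidase, at 8.58 and 7.89 against 7.44 and 3.28 (-2.88 ± 1.24), and Pck1, of gluconeogenesis, at 7.42 and 6.03 against 5.15 and 1.80 (-3.25 ± 1.1). For Slc26a3, Hao2 and Pck1 polyp 2 lay far below polyp 1, while for Scnn1a the polyps lay close together. Differences above 0 were found for 3 members. Of these, Slc9a3, the sodium and hydrogen exchanger, was the 1 higher in both polyps (3.80 and 4.81 against 6.07 and 5.28), with 1 of 2 probes in that direction.

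Of 22 enteroendocrine genes 21 were measured, with none called and a median of -0.64. In both polyps 13 were lower (61.9%, against 22.4% of all genes) and 2 higher (9.52%, against 19.4%). The chromogranin Chga stood at 3.99 and 3.53 against 2.43 and 0.43, the hormone Insl5 at 4.83 and 4.74 against 3.59 and 0.63, and the peptide Pyy at 5.42 and 5.42 against 4.88 and 2.82. Of 22 goblet cell and mucus genes, all measured, 10 were lower in both polyps (45.5%, against 22.4% of all genes), 1 was higher and none passed, with a median of -0.63. The mucin Muc2 (4.63 and 3.61 against 4.09 and 2.83) overlapped between the tissues, and the goblet cell gene Retnlb was at 6.10 and 6.47 against 5.61 and 5.53 (-0.72 ± 0.38). Of 22 Paneth-type antimicrobial genes 16 were measured, and Mmp7 rose. In both polyps 7 were higher (43.8%, against 19.4% of all genes) and 2 lower (12.5%, against 22.4%), with a median of 1.04. Over the 9 genes well above background on all 8 arrays, 2 were higher and 2 lower, with a median of 0.28. A gene could enter through the polyps alone: 10 of the 16 were well above background on all inflamed arrays and 15 on all polypoid arrays. The alpha-defensin probe of Defa1 stood at 0.48 and -0.01 against 5.59 and 4.87 (5.00 ± 0.81, limma adjusted p = 0.104) and that of Defa20 at 0.50 and -0.03 against 4.75 and 4.45 (4.37 ± 0.78). These genes are near-identical copies whose probes may not tell them apart, and in inflamed tissue Defa1 was well above background on 2 of 4 arrays and Defa20 on 3 of 4.

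Of 18 intestinal stem cell genes 17 were measured, none passed, 9 were higher in both polyps (52.9%) and 3 lower, and the median was 0.61. The shares over all genes, for this list and the next ones, were 19.4% higher and 22.4% lower. Smoc2 stood at 1.1 and -0.18 against 2.47 and 1.84 (1.70 ± 0.54), and Msi1, also a stem cell marker, at 3.47 and 3.55 against 2.72 and 2.0 (-1.15 ± 0.35). Among 22 genes of the fetal-like epithelium that forms during repair, all measured, Il33 rose, 16 were higher in both polyps (72.7%) and none lower, and the median was 0.81, the same over the 20 genes well above background on all arrays. Osteopontin, Spp1, stood at -5.26 and -4.53 against -1.35 and 0.30 (4.37 ± 0.65), the annexin Anxa1 at -1.54 and -2.14 against 0.09 and -0.51 (1.63 ± 0.28) and the marker Ly6a at 4.09 and 4.17 against 4.78 and 4.81 (0.66 ± 0.17), all without a call. Of 40 cell cycle genes 39 were measured, none passed, 21 were higher in both polyps (53.8%) and 4 lower, and the median was 0.31. Ccnd1, cyclin D1, stood at -1.20 and -1.25 against -0.12 and 0.39 (1.36 ± 0.24), and the replication helicase subunit Mcm2 at -1.60 and -1.91 against -1.02 and -0.21 (1.14 ± 0.35). Of 36 genes of BMP and TGF-beta signalling, the opponents of Wnt in the upper crypt, 32 were measured, none passed, 14 were higher in both polyps (43.8%) and 3 lower, and the median was 0.39. Bmp7 was at -1.20 and -0.59 against 1.89 and 1.01 (2.35 ± 0.35) and the activin subunit Inhba at -0.71 and -0.82 against 1.64 and 0.89 (2.03 ± 0.37).

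Markers of the other tissue layers and of immune cells are to be read beside the shares over all genes, 19.4% higher and 22.4% lower in both polyps. Their part in the results above was not tested. Smooth muscle genes had the lowest median, -1.40 over 17 genes, all measured: 9 were lower in both polyps (52.9%), none was higher and none passed. Their mean level was 2.25 and 1.25 in inflamed samples 1 and 2 and 0.72 and 0.38 in polyps 1 and 2. Lmod1, leiomodin, stood at 3.78 and 3.50 against 1.33 and 0.54 (-2.71 ± 0.42, limma adjusted p = 0.0926), Cnn1, calponin, at 5.88 and 4.24 against 2.50 and 1.63, and Myh11, smooth muscle myosin, at 3.65 and 1.09 against 1.16 and 0.58. Of 16 genes of enteric neurons and glia 13 were measured, 6 were lower in both polyps (46.2%) and none higher, with a median of -0.39. Of 22 T and NK cell genes 21 were measured, 7 lower (33.3%) and none higher, with a median of -0.31 that was -0.74 between the number 1 and 0.07 between the number 2 samples. B and plasma cell genes (16 of 18 measured, 3 higher and 3 lower, 18.8% each, shares near those of all genes) had a median of -0.31. Macrophage genes (23 of 23, 7 higher, 30.4%, and 2 lower, 8.70%) had a median of 0.15. It was -0.14 for endothelial genes (11 of 14, none higher and 1 lower, 9.09%). For general epithelial genes (17 of 17, 4 higher, 23.5%, and 3 lower, 17.6%) the median was -0.02. Of 22 fibroblast and matrix genes, all measured, 10 were higher (45.5%) and 2 lower, with a median of 0.19. None of these lists held a gene that passed. Among single members, Arg1, arginase, which macrophages express, stood at -0.02 and -0.05 against 3.21 and 2.91 (3.09 ± 0.41, adjusted p = 0.0715).

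The 2 polyps were not alike in the genes of mature epithelium. More than 4-fold apart between them were 172 genes, 154 lower and 18 higher in polyp 2, against 153 between the inflamed samples, 50 between the treated polyps and 51 between the treated inflamed samples. The genes named here were chosen after their values were seen, and with 1 sample on each side there is no test. The glucagon gene Gcg stood at 7.07 and 6.21 in inflamed tissue, at 5.24 in polyp 1 and at 0.89 in polyp 2, with 1 of 2 probes lower in polyps. Aqp4, a water channel, was at 5.91 and 5.01, then 5.12 and 0.91, the claudin Cldn8 at 7.44 and 6.84, then 7.45 and 3.36, and Slc5a8, a butyrate transporter, at 6.51 and 4.19, then 5.30 and 1.29. For Aqp4, Cldn8 and Slc5a8 polyp 1 lay at or near the level of inflamed tissue, while for Gcg polyp 1 lay below both inflamed samples. Polyp 2 lay near the treated polyps for each of these genes. The treated polyps stood at -0.06 and 0.01 for Gcg, 1.72 and 0.94 for Aqp4, 3.17 and 3.07 for Cldn8 and 1.58 and 0.84 for Slc5a8. The mean level of the 34 colonocyte genes was 3.17 and 2.90 in inflamed samples, 2.63 in polyp 1 and 1.42 in polyp 2, and 14 of them were more than 2-fold lower in polyp 2 than in polyp 1, none higher, against 1156 lower and 349 higher of all 21303 genes. Higher in polyp 2 were Msln, mesothelin (-3.56 and -0.29 in polyps 1 and 2), Serpinb11 (2.18 and 5.36), and Col17a1 and Krt14, genes of stratified epithelium (2.26 and 4.69, and 0.60 and 2.80). Inflamed tissue stood at 0.56 and 0.15 for Col17a1 and at -0.39 and 0.17 for Krt14. By contrast the mean of the 29 Wnt target genes was 1.98 and 1.81 in the polyps, against -0.06 and -0.31 in inflamed tissue.

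**Figure D4:**
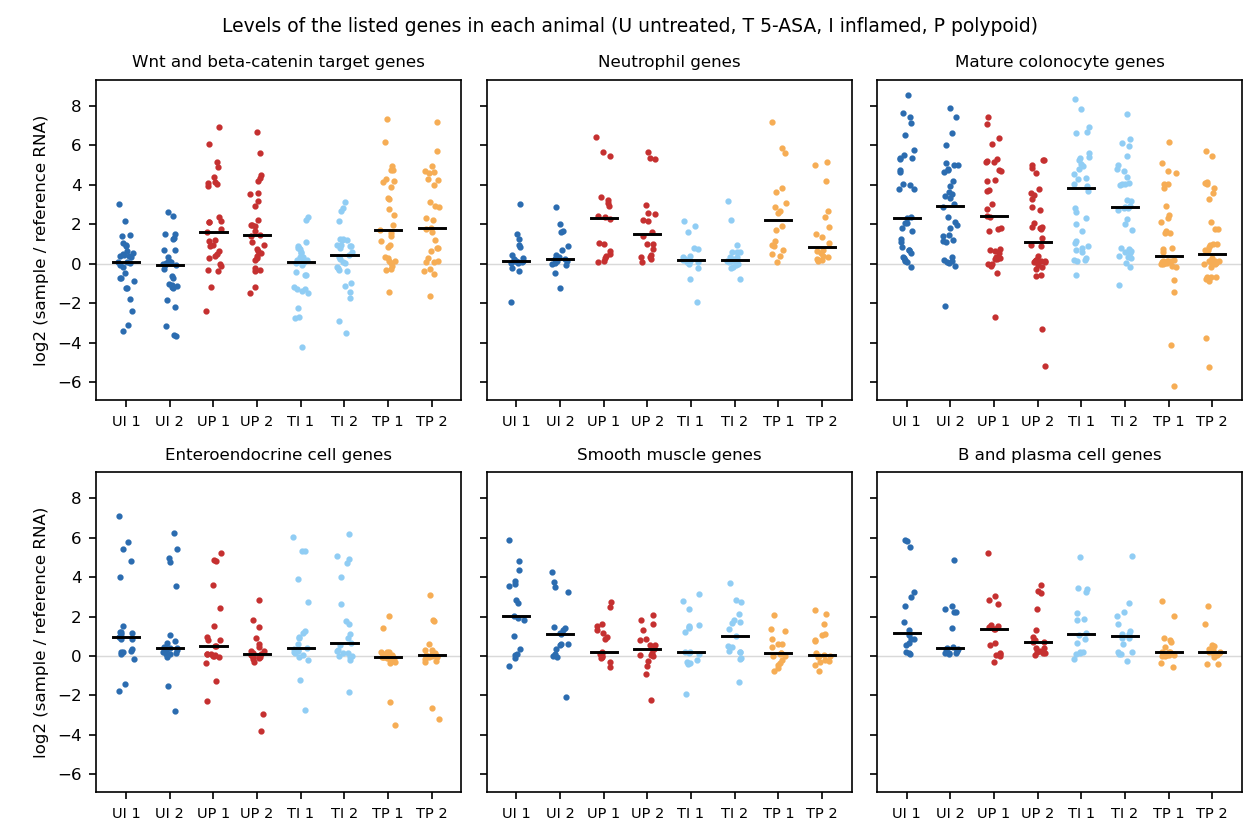
Levels (log2 of sample over reference RNA) of the measured genes of 6 lists in each of the 8 animals, with a black bar at the median; U is untreated, T is 5-ASA-treated, I is inflamed and P is polypoid. For colonocyte genes the median of untreated polyp 1 (2.41) lies within the inflamed range of 2.34 to 2.95 of untreated mice, and that of untreated polyp 2 is 1.12; for Wnt targets the polyps lie at 1.60 and 1.47 against 0.11 and -0.08.

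The inflamed samples differed from each other as well. Of 153 genes more than 4-fold apart, 104 were lower and 49 higher in inflamed sample 2. Of smooth muscle genes 10 of 17 were more than 2-fold lower in inflamed sample 2 and none higher, against 1533 lower and 351 higher of all 21303 genes. Markers of lymphoid tissue, chosen after their values were seen, also lay apart. The B cell antigen Ms4a1 stood at 5.89 and 2.23 in inflamed tissue and at 0.54 and 3.58 in polyps, Glycam1, of lymph node venules, at 4.69 and 2.15 against 0.44 and 3.50, and the B cell attractant Cxcl13 at 6.0 and 3.30 against 2.98 and 3.65. Each of these overlapped between the tissues. Cfd, the adipsin gene of fat cells, was at 7.75 and 2.05 in inflamed tissue and at 6.32 and 0.24 in polyps, high in both number 1 samples and low in both number 2 samples.

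**Figure D5:**
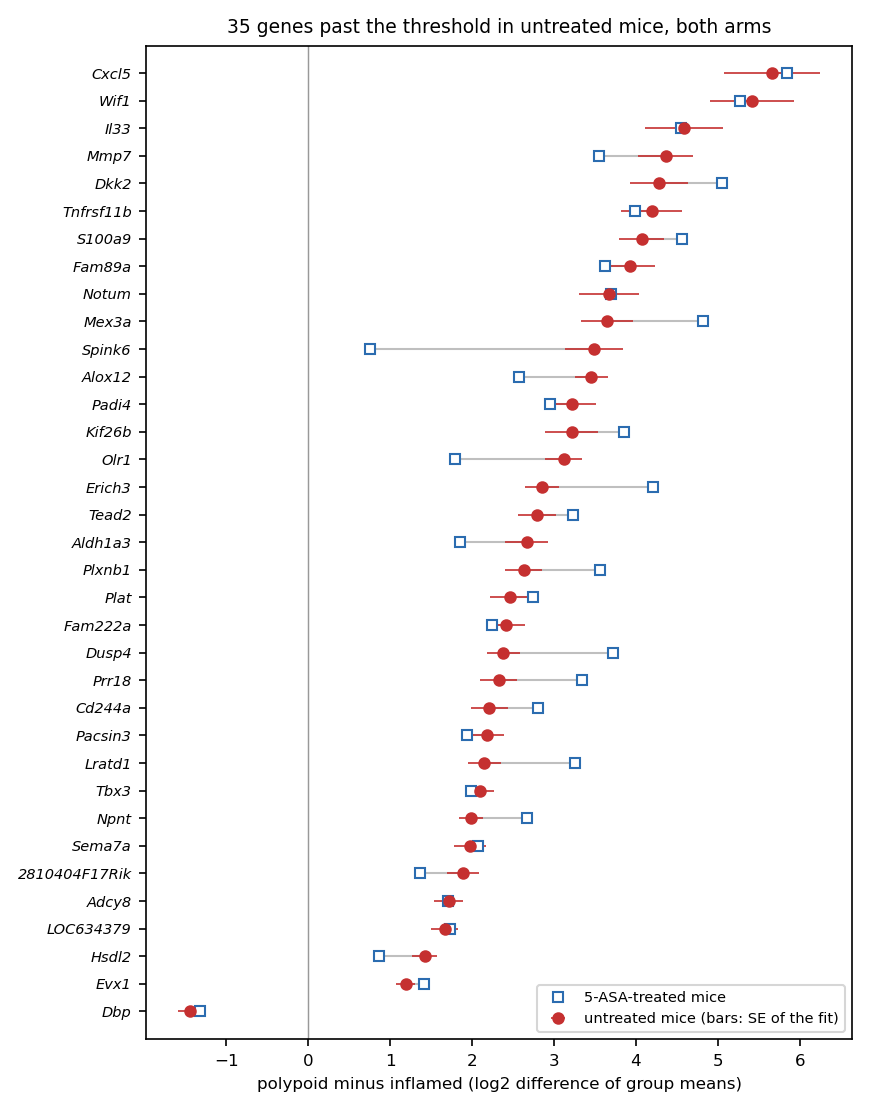
Polypoid minus inflamed difference (log2) of the 35 genes past the threshold in untreated mice (red, with SE of the fit) and the same difference in 5-ASA-treated mice (blue squares). All 35 lie on the same side of 0 in both arms, and Spink6 shows the widest gap, 3.48 against 0.75.

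The same tissue difference was measured in 2 polyps and 2 inflamed samples of mice given 5-ASA. They share the reference RNA, the estimate of the spread and scan sessions with the untreated mice, but no animal. The number 1 inflamed samples of both arms were scanned in session 1 and the number 1 polyps in session 2. The number 2 polyps of both arms were scanned in session 3. In treated mice no session held both tissues, so tissue and session cannot be told apart there. Treated inflamed sample 2 rests on 1 Cy3 array, alone in session 4, with 57.4% of spots well above background. All 35 genes had the same direction in treated mice. The treated polyps and inflamed samples did not overlap for any of the 34 higher genes, against 26.7% of all genes higher and 28.4% lower without overlap in treated mice. Of the 35, 34 also passed in treated mice, where 434 genes rose (2.04%) and 217 fell (1.02%). The exception was Spink6, at 0.07 and 0.31 in treated inflamed tissue and 1.20 and 0.69 in treated polyps (0.75, limma adjusted p = 0.328). Wif1 differed by 5.28, Cxcl5 by 5.84, Notum by 3.69 and Dbp by -1.32 in treated mice, near the untreated values. Erich3 (4.21 against 2.85 untreated) and Dusp4 (3.71 against 2.38) had larger values in treated mice, Olr1 (1.79 against 3.12) and Alox12 (2.57 against 3.46) smaller ones. The difference between the arms was tested for every gene, and none passed (limma, 0 calls, 0%; the smallest adjusted p was 0.797, and 1273 genes had an unadjusted p under 0.05). The smallest p-values of that test belonged to Xdh, xanthine dehydrogenase (1.41 untreated and -2.50 treated), the epithelial cadherin Cdh1 (1.35 and -0.58), the raft protein Flot1 (0.72 and -0.54) and to Prom2 (0.73 and 2.27), Srrm4 (0.12 and 2.01), Ttf2 (-0.09 and 1.43), AK033738 (-0.18 and -2.0), Pex11a (-0.20 and -1.51) and Lockd (-1.13 and 0.25). The lists lay at 2.01 for Wnt targets, 1.16 for neutrophil genes, -1.44 for colonocyte genes and -0.45 for smooth muscle genes in treated mice, where the untreated medians were 2.05, 1.22, -0.71 and -1.40.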

How the data were processed

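RNA of 8 laser-captured samples was measured on 15 arrays, 4 groups of 2 animals. Per the file headers, the deposited scanner files hold intensity values, mean spot and median local background brightness, from Agilent Feature Extraction 9.1.1.1, and a log10 ratio of its dye-normalised signals, used here to check the value table. The authors' deposited value table holds log2 sample over reference, with medians of -0.012 to 0.031 an array; its normalization is not given in the sources used here, and it served as an alternative. In R 4.3.3 with limma 3.58.1, background was corrected by normexp (offset 50) and arrays were normalised by loess. Swapped arrays were turned, outlier spots left out, and a fit of animal plus dye gave 1 value per animal. A probe entered the test if its sample channel was well above background throughout the arrays of some group, and a gene took its brightest probe. Of 41174 probes, 22864 were named by accession and 10230 by name through RefSeq (GRCm38.p6), and 8080 kept the array's name. Group means were fitted over all 8 animals (4 residual, 2.14 prior degrees of freedom), so P-values measure the spread between animals, whose number limits the precision, and that spread includes scan sessions. Inflamed sample 1 and polyp 1 were scanned in different sessions, so session also enters the tested difference, and the fit does not take it off. The fit was tested on simulated data.

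The gene members, the 26 gene lists and the tests were chosen with earlier results of these data known. Genes named are the 15 of largest difference that passed in each direction, filled by smallest p, the 4 of smallest p in a list (not all are described), and 5 in each direction for the difference between arms. A gene of the last group is not reported here. The remaining genes past the threshold and other list members are given for completeness and were chosen after their values were seen.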

Additional observations from a re-analysis of the deposited data

Results flagged for a closer look

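For 9 of the genes chosen by the naming rules, the animals of the tissues did not overlap in either arm but lay in opposite order in untreated and in 5-ASA-treated mice. The same held for 672 of 21303 genes (3.15%). The difference between the arms was tested in limma and passed for none of them (adjusted p 0.797 to 0.805). The untreated minus the treated difference was 3.91 for the purine enzyme Xdh, 1.92 for the epithelial cadherin Cdh1, 1.27 for Flot1 and -1.38 for the noncoding RNA Lockd. It was 1.36 for the secretory cell factor Xbp1, 1.33 for the complex I subunit Ndufa10, 1.28 for the epithelial factor Elf3, 0.80 for the interferon response gene Ifi35 and -1.56 for the neuronal nitric oxide synthase Nos1. Only 1 of 2 Nos1 probes was lower in untreated polyps.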

How the results depend on the processing

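The 34 higher and 1 lower calls became 83 calls with the scanner software's processed signals, 56 with an intensity trend, 53 with scan session as a random block, 22 with the deposited value table, 17 with a replicate block, 15 with arrays scaled to each other (chosen after seeing the data), 14 from the arrays with the sample in Cy5 alone, 11 without a filter on dim probes, and 0 with scan session as a fixed block or from the 4 untreated animals only (limma; smallest adjusted p 0.397 and 0.0867, with 2659 and 1976 genes at an unadjusted p under 0.05). Leaving out 1 animal gave 0 to 34 calls. A lone remaining sample was then assumed to vary like the other groups. The replicate numbers carry no label of a shared batch, and deviations of same-numbered samples correlated at 0.0343 to 0.363. Of the calls, 12 of 35 passed with the replicate block, 20 of the 33 that were tested with the deposited table and 11 without the filter. The difference between arms had 0 calls in each fit. The 35 genes kept their sign in every alternative that tested them except Kif26b, at -0.12 under the stricter filter, where its other probe was used. Without 1 animal and within scan session 3 the sign could not turn, since the untreated groups did not overlap for these genes. Kif26b reached 4.60 elsewhere, Plxnb1 ran from 0.74 to 3.52, and the dim probes of Notum ran from 2.34 to 5.10, Olr1 from 2.87 to 5.39 and Dkk2 from 3.89 to 6.31. Among genes without a call, the sign turned within scan session 3 for Cxcl13 (0.36), Glycam1 (1.35), Ms4a1 (1.35) and Il6 (-0.15), and with session as a fixed block for Cxcl13 (0.36), Glycam1 (0.70), Ms4a1 (0.61), Il6 (-0.41) and Tnf (-0.024). It turned for AK033738 (0.14) and Srrm4 (-0.13) after scaling. Over the fits without 1 animal it turned for Cfd (-4.66 to 1.42), Cldn8 (-3.78 to 0.30), Cxcl13 (-2.68 to 0.020), Glycam1 (-2.98 to 0.082), Il6 (-0.29 to 1.21), Srrm4 (-0.013 to 0.25) and Ttf2 (-0.30 to 0.11). The cause was not tested. Medians of the Wnt list ran from 1.36 to 2.31, of colonocyte genes from -1.11 to -0.37 and of smooth muscle genes from -2.27 to -0.36, without a change of sign; 8 list medians, that of general epithelial genes most often, changed sign under at least 1 alternative.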

Other observations

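Several further pathways differed little between the tissues of untreated mice. Of 26 prostaglandin and lipoxygenase genes 23 were measured, Alox12 rose and the median was 0.14. In both polyps 7 were higher (30.4%, against 19.4% of all genes) and 3 lower (13.0%, against 22.4%). Ptgs2, the inducible cyclooxygenase, stood at -2.12 and -2.90 in inflamed tissue and 0.88 and -0.87 in polyps (2.51 ± 1.38), without a call, and the prostanoid exporter Abcc4 at -1.07 and -1.71 against 0.36 and 0.66 (1.90 ± 0.32). Of 17 genes of the EGF receptor family and its ligands 16 were measured, with a median of 0.01. In both polyps 4 were higher (25.0%, against 19.4% of all genes) and 3 lower (18.8%, against 22.4%), shares near the background. Of 33 interferon response genes 32 were measured, 4 higher and 4 lower in both polyps (12.5% each). Both shares lay below those of all genes, 19.4% and 22.4%. Their median was 0.04 in untreated and -1.02 in treated mice, a difference between the arms that was not tested for the list. Of 40 oxidative phosphorylation genes, all measured, 12 were lower (30.0%, against 22.4%) and 5 higher (12.5%, against 19.4%), with a median of -0.22. None of these 3 lists held a gene that passed.

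Of 11 mast cell genes 9 were measured, 4 higher (44.4%, against 19.4% of all genes) and 1 lower (11.1%, against 22.4%) in both polyps. The median was 0.72, or 0.21 and 0.04 between the number 1 and number 2 samples. Hdc, which makes histamine, stood at 0.40 and 0.37 against 2.52 and 1.96 (1.85 ± 0.23, limma adjusted p = 0.0654), and the mucosal protease Mcpt1 at 0.19 and 0.23 against 1.93 and 1.41 (1.46 ± 0.23), neither past the threshold.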
